A study of Mus musculus with 15 samples.

Results

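The genes of the core circadian loop are Arntl (which encodes BMAL1), Clock and Npas2 on the activating side and Per1, Per2, Per3, Cry1 and Cry2 on the repressing side. They were followed in RNA from mouse choroid plexus, the source of most cerebrospinal fluid. The members were chosen by gene symbol from textbook membership of the loop, and a gene with several probe sets was to be read from the one with the highest mean level. Of the 8 genes listed, 7 had a probe set in the annotation used here, each exactly 1, so the measured mean decided nothing, and Npas2 had none and was not analysed here. These 7 are among 19938 named genes, of which 10109 were tested. The list was drawn up with results of these arrays known and asks how the genes vary together, so their co-variation is given as a description without a test, and counts of changed members are no independent evidence about the loop.

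The tissue came from 5 null, 5 heterozygous and 5 wild-type mice for Add1, which encodes the membrane skeleton protein alpha-adducin. All were on the C57BL/6J background, labelled male and aged 3 weeks, and the stated aim was to profile the choroid plexus of the fourth ventricle at an age that precedes hydrocephalus in this mutant. Each animal gave 1 single-colour Affymetrix array from 250 ng of total RNA. The labels give neither the kind of Add1 allele nor the hour of collection and the light schedule, and whether collection time differed between genotypes was not tested. Values are the authors' RMA levels on the log2 scale, where a difference of 1 is a doubling, and arrays are named by genotype and replicate number.

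In the textbook loop, BMAL1 pairs with CLOCK or NPAS2, binds E-box sequences and switches on the Per and Cry genes, whose proteins return to the nucleus and inhibit that pair. An attached loop sets the level of Arntl, which the REV-ERB receptors (Nr1d1, Nr1d2) repress and the ROR receptors activate through a shared element. The factors DBP, TEF and HLF activate, and NFIL3 represses, through D-box sequences. Transcripts of most of these genes go up and down over the day, and choroid plexus is among the mouse brain tissues known for strong rhythms of this kind.

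The stretches before the starts of 5 members are printed to show where these elements lie in the genes that changed between genotypes, Arntl and Cry1, and in Cry2, Per1 and Per3, the other members with a match. They are RefSeq promoters on build GRCm38.p6, 250 bases upstream of the start, read in the direction of the gene. Capitals mark exact matches of the motifs searched on both strands. These were the E-box (CACGTG), the E-prime box (CACGTT, or AACGTG when it lies on the other strand), the D-box (TTATGTAA), the ROR element (TAGGTCA) and the cyclic AMP response element (TGACGTCA); no motif's letters are contained in another's.
Arntl, chr7:113207215-113207464, plus strand: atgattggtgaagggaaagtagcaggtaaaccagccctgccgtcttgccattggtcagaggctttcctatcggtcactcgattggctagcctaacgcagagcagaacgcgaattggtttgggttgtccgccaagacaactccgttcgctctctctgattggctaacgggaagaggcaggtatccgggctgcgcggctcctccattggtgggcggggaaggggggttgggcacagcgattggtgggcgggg
Cry1, chr10:85185055-85185304, minus strand: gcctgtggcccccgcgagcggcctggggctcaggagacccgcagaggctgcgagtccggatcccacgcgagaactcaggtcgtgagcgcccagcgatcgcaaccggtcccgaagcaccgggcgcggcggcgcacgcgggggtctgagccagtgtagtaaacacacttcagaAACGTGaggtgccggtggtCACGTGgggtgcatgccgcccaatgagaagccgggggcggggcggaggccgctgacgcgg
Cry2, chr2:92434070-92434319, minus strand: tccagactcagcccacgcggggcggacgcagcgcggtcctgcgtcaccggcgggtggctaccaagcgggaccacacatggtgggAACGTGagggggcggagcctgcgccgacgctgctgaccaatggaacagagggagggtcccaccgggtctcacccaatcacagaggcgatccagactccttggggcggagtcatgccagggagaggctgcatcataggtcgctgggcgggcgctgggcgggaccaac
Per1, chr11:69098699-69098948, plus strand: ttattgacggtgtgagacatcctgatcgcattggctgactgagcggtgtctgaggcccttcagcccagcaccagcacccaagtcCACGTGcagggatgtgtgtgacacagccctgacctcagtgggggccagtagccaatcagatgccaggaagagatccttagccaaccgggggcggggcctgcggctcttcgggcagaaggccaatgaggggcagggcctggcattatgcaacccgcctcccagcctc
Per3, chr4:151044666-151044915, minus strand: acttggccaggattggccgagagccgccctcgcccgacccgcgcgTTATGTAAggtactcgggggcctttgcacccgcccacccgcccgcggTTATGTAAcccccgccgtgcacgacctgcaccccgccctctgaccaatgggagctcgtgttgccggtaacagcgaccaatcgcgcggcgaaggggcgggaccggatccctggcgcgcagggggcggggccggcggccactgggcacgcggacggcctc

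The Cry1 stretch held an E-prime box from -79 to -74 and an E-box from -60 to -55, counted from the start. The Per1 stretch held an E-box from -166 to -161, and the Cry2 stretch held an E-prime box at the same distance. The Per3 stretch held D-boxes from -205 to -198 and from -158 to -151. No searched motif was found in the Arntl window, nor in its 1 other promoter entry, the 3 of Clock, the 1 of Npas2 or the second of Per1. The promoter table matched 7 of the 8 members with 11 promoters and held no entry for Per2. Over all 32851 promoters of the same length, 6.02% held an E-box, 3.85% an E-prime box, 0.819% a D-box, 2.23% a ROR element and 1.55% a cyclic AMP response element. Counted per gene, 2 of the 7 members matched had an E-box, 2 an E-prime box, 1 a D-box, 0 a ROR element and 0 a cyclic AMP response element in any of their promoters. Over all 27025 genes of the table the shares in that order were 6.86%, 4.50%, 0.977%, 2.55% and 1.77%. A match describes letters and is not evidence that a factor binds there. Bases after the start and variants of these letters were not searched. A missing match, as for Arntl, is therefore not evidence that a gene lacks the element.

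Before the members, some facts of the arrays bear on every comparison. Add1 itself averaged 7.61 ± 0.161 in null, 7.76 ± 0.0996 in heterozygous and 7.92 ± 0.116 in wild-type arrays (SD, n = 5 each). The null level fell by 0.31 on the log2 scale relative to wild type (exact two-sided permutation p = 0.00794, the smallest that 252 regroupings allow; limma adjusted p = 0.0241). That call was lost without null array 4, wild-type array 1 or wild-type array 2 (limma adjusted p between 0.0512 and 0.0681). The labels do not give the deleted stretch of Add1, and a probe set that reads outside it would not check the labels. Null arrays 1 and 5 went against the label male: the female-specific RNA Xist read 9.09 and 9.69 there and 3.11 to 3.88 in the other 13 arrays, while the Y-linked gene Eif2s3y read 3.19 and 3.34 there and 6.92 to 7.60 in the others. Heterozygous array 1 carried more neural RNA, with a mean over 6 cerebellar granule neuron markers of 7.67, against 5.60 to 5.80 in the other heterozygous arrays. The choroid plexus epithelium markers were high throughout: 10 of 12 were measured, and their mean lay between 11.31 and 11.39 in null, between 11.24 and 11.41 in heterozygous and between 11.30 and 11.40 in wild-type arrays. Within that list 1 marker rose and 1 fell in null against wild type: the water channel gene Aqp1 (0.34, limma adjusted p = 0.00256) and the potassium channel gene Kcnj13 (-0.23, limma adjusted p = 0.0270). Over all tested genes 4.17% were called higher and 3.54% lower in that comparison. The Kcnj13 call was lost without null array 1 or 3 or wild-type array 1 or 2 (limma adjusted p between 0.0658 and 0.0803). Each sample carries a number whose meaning is not given; its part before the dot, here the label number, ran from 444 to 483 in null, from 428 to 460 in heterozygous and from 429 to 451 in wild-type animals. Label number and genotype therefore overlap only in part.

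Arntl and Cry1 were higher in null choroid plexus than in both other genotypes, while Clock, Cry2 and the 3 Period genes did not pass the test in any comparison. In null against wild type, 2 of the 7 members were called, both higher, in a limma fit over all genes with Benjamini-Hochberg adjusted p under 0.05. In that comparison 7.72% of all tested genes were called, 4.17% higher and 3.54% lower. With the arrays centred on their medians the split over all genes was 262 higher and 558 lower, against 422 higher and 358 lower as deposited, and the same 2 members remained higher. In null against heterozygous, 2 members were called, both higher, beside 7.82% of all tested genes, 4.28% higher and 3.54% lower. In heterozygous against wild type 0 members were called by limma, beside 0% of all tested genes. At an unadjusted p under 0.05 the counts were 3 members in null against wild type (24% of all genes), 3 in null against heterozygous (25.8%) and 0 in heterozygous against wild type (3.77%). No member separated 2 genotypes with all arrays of one above all of the other, which 5.95% of tested genes did in null against wild type, 5.76% in null against heterozygous and 0.801% in heterozygous against wild type. The median difference of the 7 members was 0.14 in null against wild type (0.01 over all tested genes), 0.17 in null against heterozygous (0.01) and -0.06 in heterozygous against wild type (0.002). The 2 comparisons that involve null animals share the null arrays, so they are not independent of each other.

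**Figure D1:**
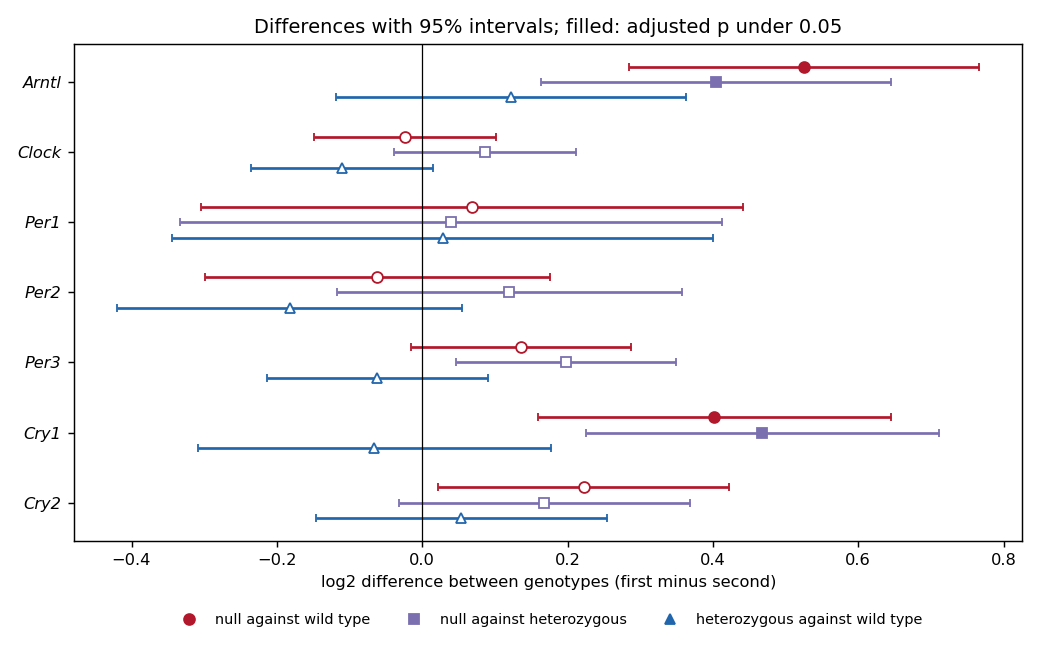
The log2 difference of each measured member (x axis, first genotype minus second) is drawn with its 95% interval from the limma fit for null against wild type (circles), null against heterozygous (squares) and heterozygous against wild type (triangles). Filled symbols are called: Arntl at 0.53 and 0.40 and Cry1 at 0.40 and 0.47, in the comparisons with null animals.

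Arntl encodes BMAL1, the partner without which the activating pair does not form. It read 5.91, 5.39, 5.98, 5.80 and 5.46 in null arrays 1 to 5, 5.40, 5.23, 5.11, 5.39 and 5.39 in heterozygous arrays, and 5.33, 4.96, 5.03, 5.19 and 5.40 in wild-type arrays. Null arrays 1, 3, 4 and 5 lay above every wild-type and every heterozygous array, and null array 2 lay inside both ranges. The level averaged 5.71 ± 0.267 in null, 5.30 ± 0.130 in heterozygous and 5.18 ± 0.188 in wild-type arrays (SD, n = 5 each). The null level rose by 0.53 relative to wild type (SE 0.114, 95% interval 0.29 to 0.77, limma adjusted p = 0.0103), which is 1.44-fold. Relative to heterozygous animals it rose by 0.40 (interval 0.16 to 0.64, limma adjusted p = 0.0395). The heterozygous mean was 0.12 above wild type, with an interval from -0.12 to 0.36, so those neighbours in the order did not differ beyond their spread. In tissue samples such as these, a change in the share of a cell type and a change in RNA per cell cannot be told apart.

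Arntl was also the dimmest member. Its level exceeded the filter of 5.31 in 5 null, 3 heterozygous and 2 wild-type arrays. That filter is the median over the probe sets that stand for the named genes. The null arrays met the minimum of 5 arrays by themselves, and the heterozygous and wild-type arrays together also met it. The other 6 members exceeded the filter in all 15 arrays. With the label number as a covariate the Arntl difference from wild type was 0.52 and lost its call (limma adjusted p = 0.128). Without null arrays 1 and 5 the null mean of Arntl was 5.72 ± 0.302 (SD, n = 3).

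Clock encodes the partner of BMAL1. It read 8.47, 8.20, 8.45, 8.42 and 8.37 in null arrays, 8.19, 8.35, 8.25, 8.37 and 8.32 in heterozygous arrays, and 8.44, 8.37, 8.48, 8.37 and 8.37 in wild-type arrays. It was the steadiest member, with a span of 0.29 over all 15 arrays. Its null mean differed from wild type by -0.02 (interval -0.15 to 0.10, limma adjusted p = 0.848) and from heterozygous by 0.09 (interval -0.04 to 0.21). In heterozygous arrays the mean was 8.30 ± 0.0747, against 8.41 ± 0.0513 in wild type (SD, n = 5 each), and 4 of the 5 heterozygous arrays read below every wild-type array. That difference of -0.11 had an unadjusted p of 0.0816 in the limma fit and an adjusted p of 0.994.

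**Figure D2:**
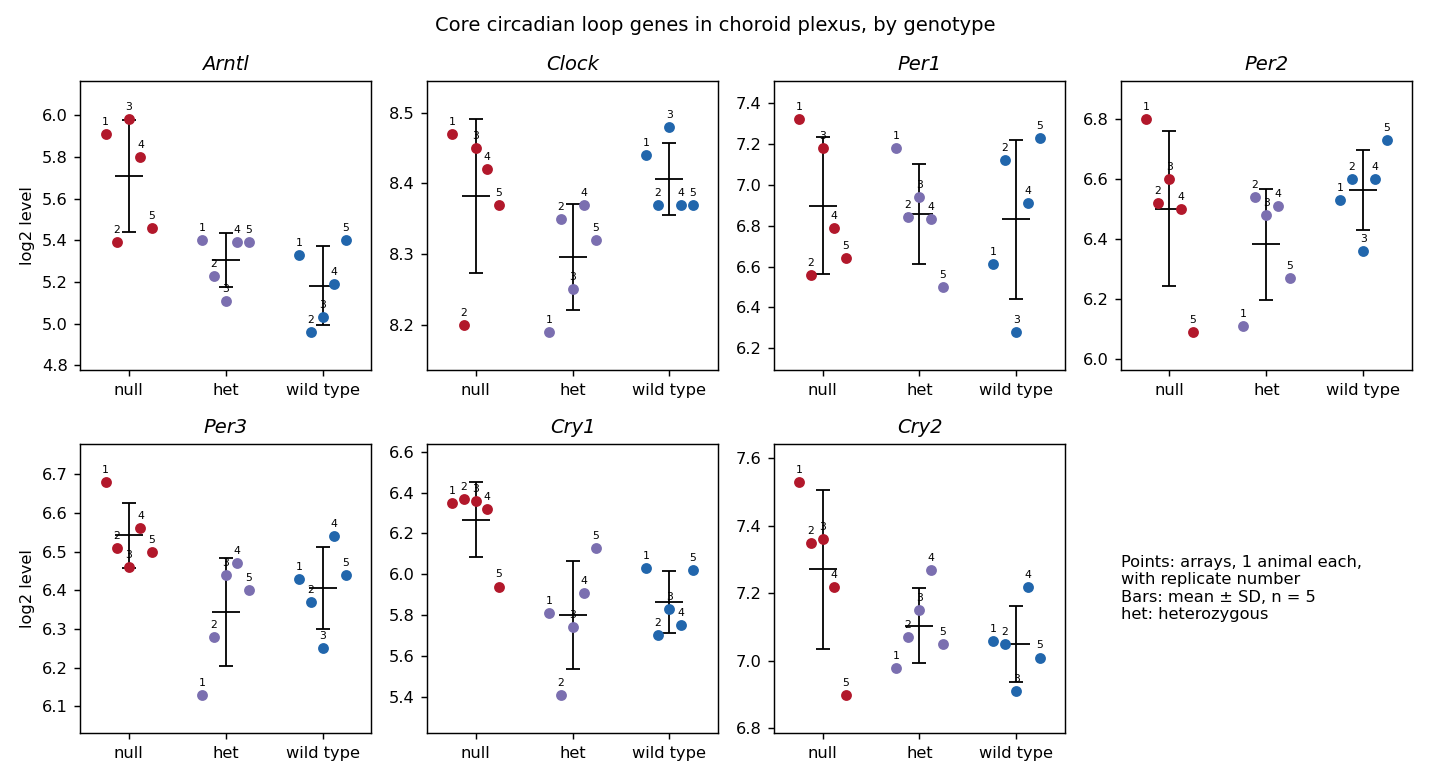
The log2 level of each measured member (y axis, own scale per gene) is shown for the 5 null, 5 heterozygous (het) and 5 wild-type arrays, with replicate numbers beside the points and the mean and SD as bars. For Arntl and Cry1, 4 of 5 null arrays lie above all others; null array 5 is low for Per2 (6.09), Cry1 (5.94) and Cry2 (6.90).

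The Cryptochromes encode the repressors that bind the CLOCK and BMAL1 pair directly. Cry1 read 6.35, 6.37, 6.36, 6.32 and 5.94 in null arrays, 5.81, 5.41, 5.74, 5.91 and 6.13 in heterozygous arrays, and 6.03, 5.70, 5.83, 5.75 and 6.02 in wild-type arrays. The first 4 null arrays lay within 0.05 of each other and above all arrays of the other genotypes, and null array 5 lay inside the wild-type range. The means were 6.27 ± 0.184 in null, 5.80 ± 0.263 in heterozygous and 5.87 ± 0.152 in wild-type arrays (SD, n = 5 each). Cry1 rose in null by 0.40 relative to wild type (SE 0.115, interval 0.16 to 0.64, limma adjusted p = 0.0416), a 1.32-fold change. Relative to heterozygous animals it rose by 0.47 (interval 0.23 to 0.71, limma adjusted p = 0.0219). Heterozygous and wild-type animals differed by -0.07, with an interval from -0.31 to 0.18, so their order is not fixed beyond the spread. The call against wild type was lost without any of null arrays 1 to 4, heterozygous array 3 or 4, or wild-type arrays 1 to 4 (limma adjusted p between 0.0501 and 0.107), and with the label number as a covariate the difference was 0.31 (limma adjusted p = 0.361).

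Cry2 read 7.53, 7.35, 7.36, 7.22 and 6.90 in null arrays, 6.98, 7.07, 7.15, 7.27 and 7.05 in heterozygous arrays, and 7.06, 7.05, 6.91, 7.22 and 7.01 in wild-type arrays. Null arrays 1, 2 and 3 lay above every array of the other genotypes, whereas null array 5 was the lowest of all 15. The null mean of 7.27 ± 0.235 stood 0.22 above the wild-type mean of 7.05 ± 0.112 (SD, n = 5 each; interval 0.02 to 0.42), with an unadjusted p of 0.0320 and an adjusted p of 0.162 in the limma fit. Without null array 5 the difference was 0.32 and was called (limma adjusted p = 0.0204). The heterozygous mean, 7.10 ± 0.111, was 0.05 above wild type (interval -0.15 to 0.25).

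The Period genes encode the repressors that carry the Cryptochromes into the nucleus, and Per1 and Per2 are also known to respond quickly to light, cyclic AMP and glucocorticoids. Per1 read 7.32, 6.56, 7.18, 6.79 and 6.64 in null arrays, 7.18, 6.84, 6.94, 6.83 and 6.50 in heterozygous arrays, and 6.61, 7.12, 6.28, 6.91 and 7.23 in wild-type arrays. The ranges were wide and overlapped: 6.56 to 7.32 in null, 6.50 to 7.18 in heterozygous and 6.28 to 7.23 in wild-type arrays. The means were 6.90 ± 0.335 in null, 6.86 ± 0.245 in heterozygous and 6.83 ± 0.388 in wild-type arrays (SD, n = 5 each), and the null difference from wild type was 0.07 with an interval from -0.30 to 0.44. The sign of the Per1 difference turned when null array 1, null array 3 or wild-type array 3 was left out (-0.04, -0.003 and -0.07).

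Per2 read 6.80, 6.52, 6.60, 6.50 and 6.09 in null arrays, 6.11, 6.54, 6.48, 6.51 and 6.27 in heterozygous arrays, and 6.53, 6.60, 6.36, 6.60 and 6.73 in wild-type arrays. The highest and the lowest of the 15 values were both in null animals, arrays 1 and 5, which are the pair with Xist signal. The means were 6.50 ± 0.259 in null, 6.38 ± 0.185 in heterozygous and 6.56 ± 0.135 in wild-type arrays (SD, n = 5 each). The null difference from wild type was -0.06 (interval -0.30 to 0.18, limma adjusted p = 0.784), and without null array 5 it was 0.04. The heterozygous difference from wild type was -0.18 (interval -0.42 to 0.06), with all 5 heterozygous arrays below the wild-type mean.

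Per3 read 6.68, 6.51, 6.46, 6.56 and 6.50 in null arrays, 6.13, 6.28, 6.44, 6.47 and 6.40 in heterozygous arrays, and 6.43, 6.37, 6.25, 6.54 and 6.44 in wild-type arrays. All 5 null arrays exceeded the wild-type mean of 6.41 ± 0.106, and 4 of 5 exceeded every heterozygous array. The null mean of 6.54 ± 0.0850 was 0.20 above the heterozygous mean of 6.34 ± 0.140 (SD, n = 5 each; interval 0.05 to 0.35), with an unadjusted p of 0.0136 and an adjusted p of 0.0927 in the limma fit. Against wild type the difference was 0.14 (interval -0.02 to 0.29, limma adjusted p = 0.263). The heterozygous mean lay 0.06 below wild type (interval -0.21 to 0.09).

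How far single animals of a genotype differed from each other depended on the gene. The residual SD within genotypes was 0.328 for Per1, 0.205 for Cry1, 0.203 for Arntl, 0.200 for Per2, 0.164 for Cry2, 0.113 for Per3 and 0.0816 for Clock, against a median of 0.122 over all tested genes. Per1 was more variable than 98.4% of tested genes and Clock more than 13.0%. Cry1, Arntl and Per2 were near the 90th percentile, at 91.0%, 90.7% and 90.1%.

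The Period genes were also set against the activating side in every array, as the mean of the 3 Period genes minus the mean of Arntl and Clock, centred on its mean over the arrays. It averaged -0.11 ± 0.126 in null, 0.02 ± 0.147 in heterozygous and 0.09 ± 0.206 in wild-type arrays (SD, n = 5 each). The null values ran from -0.22 to 0.03 and the wild-type values from -0.17 to 0.32, so the ranges overlap. The mean of null was 0.20 below that of wild type, and between 0.15 and 0.27 below it when single arrays of these genotypes were left out. With Cry1 and Cry2 added to the Period genes, a choice made after seeing the data, the balance averaged -0.05 ± 0.151 in null, -0.002 ± 0.104 in heterozygous and 0.05 ± 0.136 in wild-type arrays, and the null mean was 0.10 below wild type. The value thus depends on which repressors enter, and Arntl, with the larger difference of the 2 activators, enters both versions. The balance is a description of chosen members and was given no test.

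Across the 15 arrays the members mostly varied in the same direction. Of their 21 pairs, 20 had a Pearson r above 0, with a median r of 0.39 and a range from -0.03 to 0.77, and 8 exceeded 0.5. The median Spearman rho was 0.31. The arrays share genotype, tissue makeup and label number, so these values describe joint variation and were given no p. With the genotype mean removed from every gene the median r was 0.37 and 5 pairs exceeded 0.5. When the 2 arrays farthest from the median of the first gene of a pair were left out, the median r was 0.25 and 14 pairs remained above 0. Without the 2 null arrays with Xist signal it was 0.24, with 17 pairs above 0. With the arrays centred on their medians it was 0.33, with 17 pairs above 0 and 4 above 0.5. Many genes outside the loop reach an r of this size with a member. With the genotype mean removed, Cry2 (r = 0.37) ranked 2134th in likeness to Arntl among 10108 other tested genes.

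**Figure D3:**
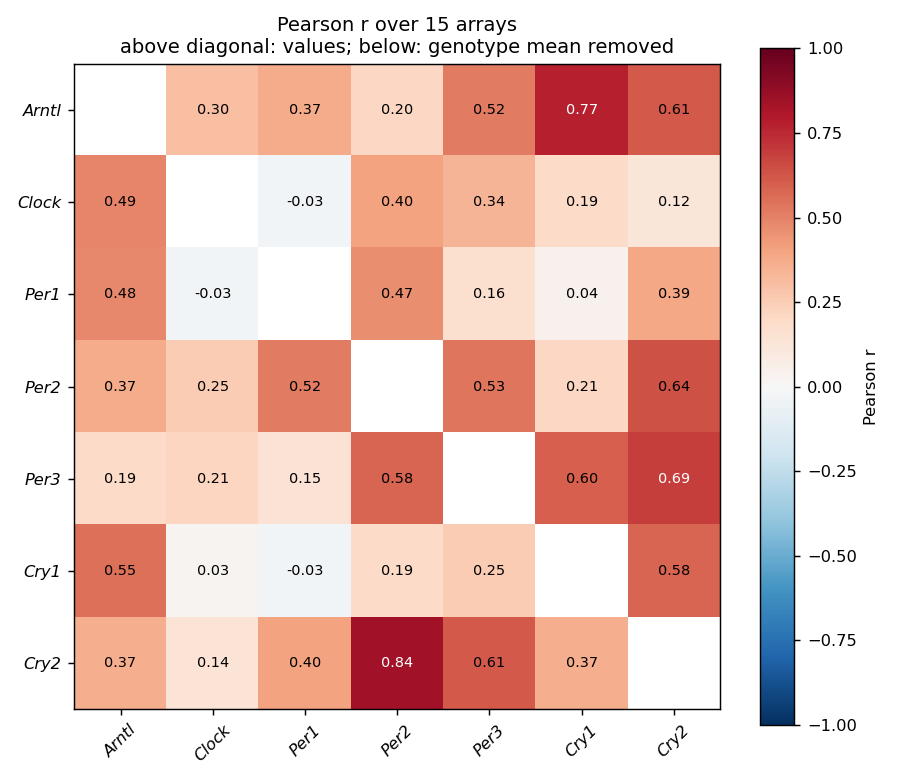
Each cell gives the Pearson r of a pair of members over the 15 arrays, above the diagonal from the levels and below it after the genotype mean was removed; colour runs from -1 (blue) to 1 (red). Arntl with Cry1 (0.77) leads above the diagonal and Per2 with Cry2 (0.84) below it.

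Arntl and Cry1 were the most alike pair in level (r = 0.77, rho = 0.71; r = 0.67 without the 2 farthest arrays). With the genotype mean removed r was 0.55, and Cry1 then ranked 755th in likeness to Arntl among 10108 other tested genes. In the levels r was 0.74 without the null arrays that carry Xist signal. Per2 and Cry2 became more alike when the genotype mean was removed, with an r of 0.84 against 0.64 in the levels, and Cry2 then ranked 36th in likeness to Per2 among 10108 other tested genes. In the levels that pair leaned on null arrays 1 and 5, which held the highest and lowest values of both genes, since without them r was 0.38. With the genotype mean removed, r was 0.67 without the 2 arrays farthest from the median of Per2. It was 0.72 to 0.89 when single arrays were left out. Per3 and Cry2 had an r of 0.69, which was 0.72 without null arrays 1 and 5 and 0.61 with the genotype mean removed. Clock and Per1 had an r of -0.03, and Arntl and Per2, which are known to peak at different times of day in mouse tissues, had an r of 0.20. It became -0.19 without the 2 farthest arrays, 0.37 with the genotype mean removed and 0.23 with both done.

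**Figure D4:**
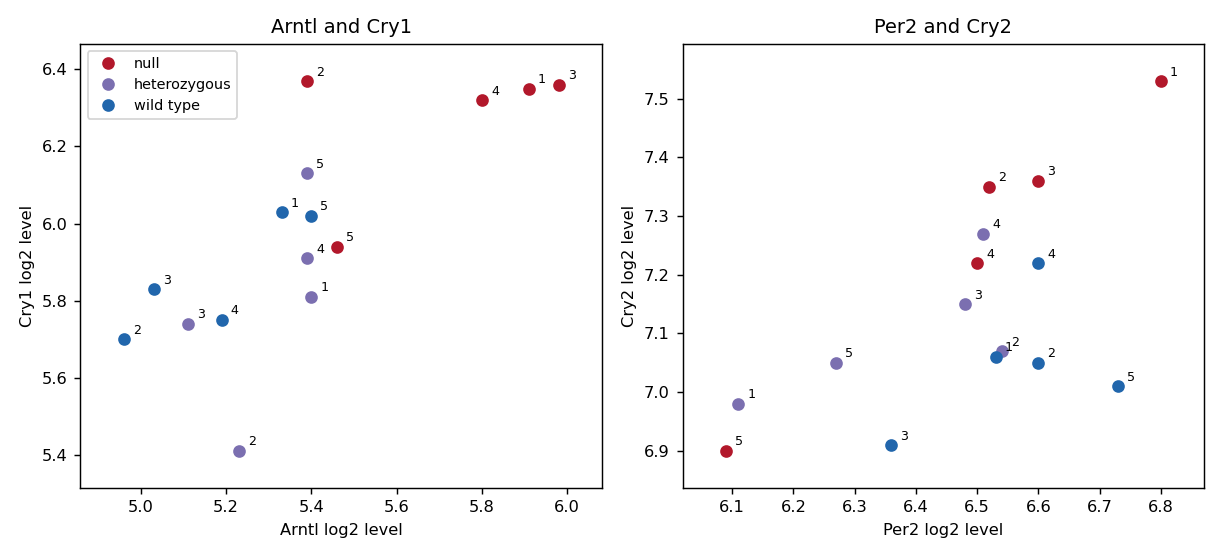
Each point is 1 array, numbered by replicate, with the log2 level of Cry1 against Arntl on the left and of Cry2 against Per2 on the right, coloured by genotype. On the left, null arrays 1, 3 and 4 lie apart at the upper right; on the right, null array 1 is at the top and null array 5 at the bottom.

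The genes most like Arntl after the genotype mean was removed were Kansl2 (r = 0.91), Tnrc18 (0.90), Erc1 (0.87), Npc1 (0.86) and Myo9a (0.85), and the most opposite were Ephx1 (-0.88), Rwdd4a (-0.86), Marchf5 (-0.85), Tgoln1 (-0.83) and Sp3os (-0.83). For Per2 they were Sf1 (0.97), Abl1 (0.95), Qsox2 (0.90), Fgfr1 (0.90) and Ppfia1 (0.89), and on the opposite side Fbll1 (-0.88), Vps41 (-0.86), Wnt9a (-0.83), Ghitm (-0.82) and Rpl9 (-0.82). For the other members the highest and lowest were Adhfe1 (0.93) and Hrk (-0.91) for Clock, Coro6 (0.89) and Bet1 (-0.86) for Per1, and Dennd1a (0.89) and Slc22a4 (-0.80) for Per3. They were Iqce (0.91) and Dhx15 (-0.82) for Cry1, and Kmt2b (0.91) and Vps41 (-0.93) for Cry2. These are the extremes of 10108 genes over 15 arrays, and no member of the loop was among them.

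A wider list joined the attached loop with the D-box factors and other regulators tied to the clock. In it, Nfil3 was higher and Dbp and Ciart were lower in null than in wild-type choroid plexus. No tested REV-ERB or ROR gene of the list was called. Of the 14 genes of that list, 13 were measured and 11 tested, and in null against wild type 1 rose and 2 fell (median difference -0.03, against 0.01 over all genes). Over all tested genes 4.17% were called higher and 3.54% lower in that comparison. Nfil3, the D-box repressor, read 6.86, 6.46, 6.93, 6.61 and 6.40 in null arrays and 6.51, 6.25, 6.27, 6.22 and 6.39 in wild-type arrays. It rose by 0.32 relative to wild type (limma adjusted p = 0.0484) and by 0.38 relative to heterozygous animals (limma adjusted p = 0.0257). Dbp, a D-box activator and a direct target of BMAL1, read 8.21, 8.53, 7.95, 8.24 and 8.69 in null arrays and 9.0, 8.90, 8.67, 8.92 and 8.48 in wild-type arrays. Its null level fell by 0.47 relative to wild type (limma adjusted p = 0.0320) and by 0.51 relative to heterozygous animals (limma adjusted p = 0.0248). In both genes null arrays 2 and 5 lay inside the wild-type range.

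Ciart, a repressor that acts on the CLOCK and BMAL1 pair, read 6.39, 5.33, 5.67, 5.77 and 6.29 in null arrays, 6.33, 6.79, 6.40, 6.64 and 6.17 in heterozygous arrays, and 7.11, 7.25, 6.64, 7.0 and 6.30 in wild-type arrays. Its null level fell by 0.97 relative to wild type (limma adjusted p = 0.00719). Against heterozygous animals the null difference was -0.58 and was not called (limma adjusted p = 0.0765). The heterozygous difference from wild type was -0.39 (limma adjusted p = 0.994). A further probe set of Ciart averaged 5.99 ± 0.256 in null and 6.39 ± 0.360 in wild-type arrays (SD, n = 5 each), a difference of -0.40, so the probe sets share a direction and not a size. The REV-ERB gene Nr1d1 differed by -0.32 (limma adjusted p = 0.269) and Nr1d2 by -0.17 (0.0760), and the E-box repressor Bhlhe41 by -0.18 (0.147). Rora, the ROR receptor tested, differed by 0.08 (0.648).

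**Figure D5:**
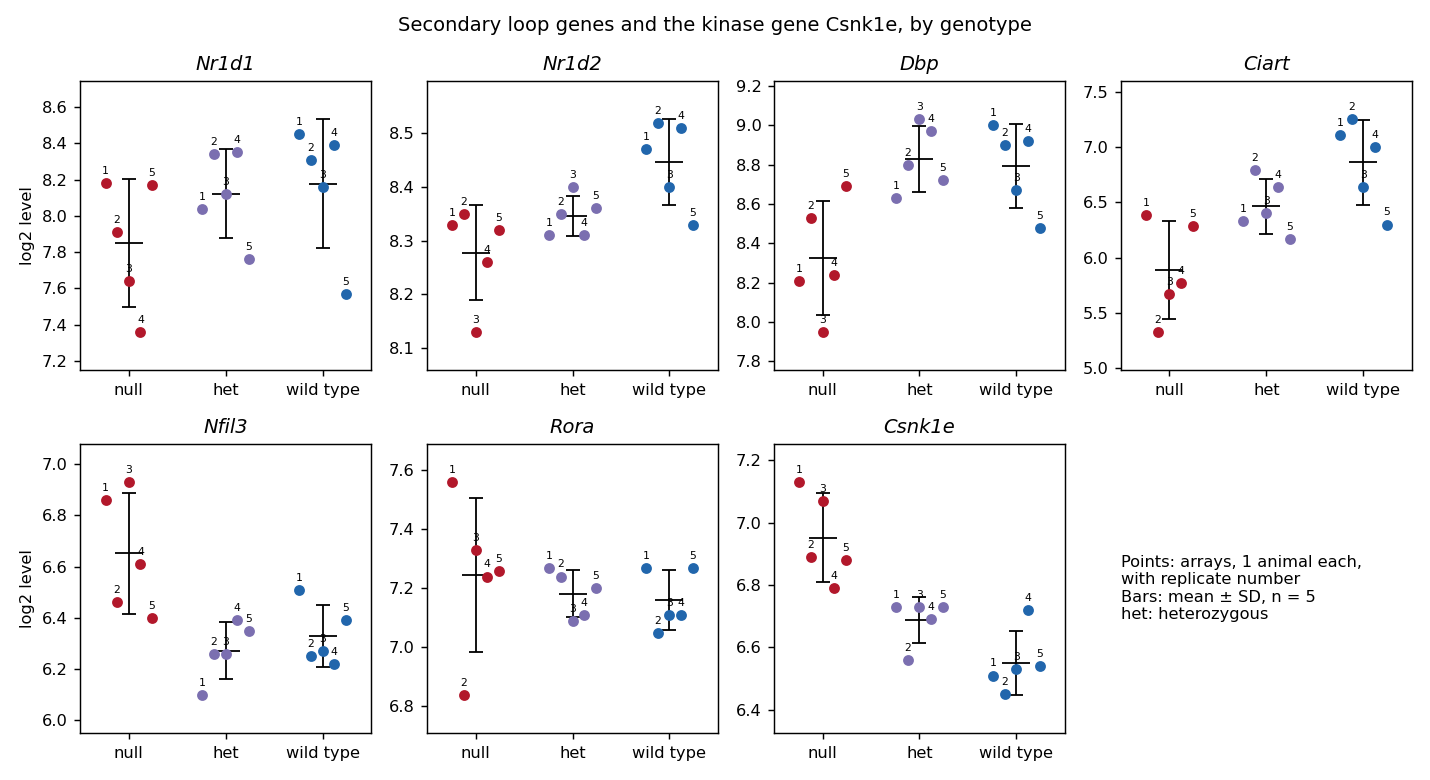
The log2 level (y axis, own scale per gene) is shown for 6 genes of the wider list around the attached loop and for the kinase gene Csnk1e. Points are the 5 null, 5 heterozygous (het) and 5 wild-type arrays, with replicate numbers and the mean and SD as bars. Dbp and Ciart are low and Nfil3 is high in most null arrays, and all 5 null arrays of Csnk1e exceed every other array.

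Some of the 11 tested genes of the wider list around the attached loop followed Arntl from array to array and others did not. Over the 15 arrays Arntl had an r of 0.86 with Nfil3, -0.84 with Dbp, -0.84 with Bhlhe41, -0.79 with Nr1d2, 0.63 with Rora, -0.62 with Ciart and -0.55 with Nr1d1. For the other 4 it was 0.52 with Cipc, 0.25 with Hlf, -0.17 with Tef and -0.16 with Bhlhe40. Without the 2 arrays farthest from the median of Arntl, r was 0.65 with Nfil3, -0.67 with Dbp, -0.66 with Bhlhe41 and -0.76 with Nr1d2. It was then 0.36 with Rora, -0.64 with Ciart, -0.65 with Nr1d1, -0.04 with Cipc, 0.18 with Hlf, -0.14 with Tef and -0.19 with Bhlhe40. The ranks of these pairs among all tested genes were not taken. With the genotype mean removed the values were 0.76 for Nfil3, -0.69 for Dbp, -0.80 for Bhlhe41, -0.63 for Nr1d2, 0.74 for Rora, -0.07 for Ciart and -0.37 for Nr1d1, and 0.56 for Cipc, 0.48 for Hlf, -0.25 for Tef and -0.19 for Bhlhe40. The D-box activator genes Dbp, Tef and Hlf thus did not share a sign. Ciart thus followed Arntl between genotypes and hardly within them. Cry1 had an r of -0.83 with Bhlhe41, -0.72 with Ciart and -0.72 with Dbp, and of -0.65, -0.55 and -0.38 once the genotype mean was removed.

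Among 16 tested kinases and ubiquitin ligases that act on PER, CRY or BMAL1 proteins, of 20 listed, 2 rose in null against wild type and 0 fell (median difference 0.06). Over all tested genes 4.17% were called higher and 3.54% lower in that comparison. Csnk1e, which encodes a casein kinase that marks PER proteins for turnover, read 7.13, 6.89, 7.07, 6.79 and 6.88 in null, 6.73, 6.56, 6.73, 6.69 and 6.73 in heterozygous and 6.51, 6.45, 6.53, 6.72 and 6.54 in wild-type arrays. All null arrays lay above all others, and the level rose by 0.40 relative to wild type (SE 0.0707, limma adjusted p = 0.00304) and by 0.26 relative to heterozygous animals (limma adjusted p = 0.0313). The call against heterozygous animals was lost without null array 1 or 3 or any of heterozygous arrays 1 to 4 (limma adjusted p between 0.0502 and 0.0869), and in 7 of the 14 other settings (up to 0.127). Csnk2a2, a casein kinase catalytic subunit, rose by 0.22 relative to wild type (limma adjusted p = 0.0408). With 1 array left out at a time, over 15 fits, the call against wild type was lost in 12 for Csnk2a2, in 11 for Nfil3 and in 6 for Dbp, and in 0 for Ciart and Csnk1e. With the label number as a covariate the Ciart difference was -0.60 (limma adjusted p = 0.258), and Csnk1e was the gene among these 5 that kept its call against wild type.

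The lists for cofactors of the complexes (12 tested of 17), clock outputs found in many tissues (6 of 12), immediate early genes (6 of 14) and glucocorticoid-responsive genes (13 of 13) had 0 calls by limma in every comparison. At an unadjusted p under 0.05 in null against wild type they held 3, 2, 0 and 2 genes in that order, beside 24% of all tested genes. In null against heterozygous they held 6, 1, 0 and 4, beside 25.8%, and in heterozygous against wild type 1, 0, 0 and 0, beside 3.77%. Their smallest unadjusted p-values in null against wild type were those of Kdm5a (0.0185), Tspan4 (0.0131), Dusp1 (0.270) and Nfkbia (0.0321). The glucocorticoid-responsive gene Fkbp5 read 8.14 in null array 1, where Per1 and Per2 were also highest, and 6.01 to 6.80 in the other null arrays. That array is 1 of the 2 null arrays with Xist signal. Fkbp5 was picked after its values were seen, and a link with Per1 and Per2 was not tested. In the list of heat shock and cold-inducible genes, 8 of 10 were tested, and 2 rose and 3 fell in null against wild type. Over all tested genes 4.17% were called higher and 3.54% lower in that comparison. The RNA-binding genes Cirbp (0.80, limma adjusted p = 4.03e-04) and Rbm3 (0.43, adjusted p = 0.0290), which are induced by mild cold, rose. The chaperone genes Hsph1 (-0.79, limma adjusted p = 9.28e-05) and Hspa1a (-0.51, adjusted p = 0.0219) and the HSP90 cofactor gene Chordc1 (-0.73, adjusted p = 0.00232) fell. The Rbm3 call was lost without any of null arrays 1, 3 and 4 and wild-type arrays 1 to 4 (limma adjusted p between 0.0523 and 0.0879) and in 4 of the 14 other settings. The Hspa1a call was lost without null array 3, wild-type array 1 or wild-type array 2 (0.0584 to 0.0671) and in 3 other settings, and those of Cirbp, Hsph1 and Chordc1 against wild type held in each setting run. In heterozygous against wild type none of these lists had a call by limma.

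Some markers of endothelium, stroma, astrocytes and ependyma were called in null against wild type, and none of any cell type by limma in heterozygous against wild type. Over all tested genes 4.17% were called higher and 3.54% lower in null against wild type, and 0% in heterozygous against wild type. For endothelium 4 of 6 markers were tested and 2 rose in null against wild type (Kdr and Cdh5), with list means of 5.88 to 6.45 in null and 5.65 to 6.13 in wild-type arrays. For astrocytes and radial glia 1 of 5 tested markers rose (Sox2), with list means of 6.35 to 7.11 in null and 6.21 to 6.40 in wild-type arrays. For stroma 2 of 6 rose (Dcn and Pdgfra) and 1 fell (Ogn), with list means of 8.05 to 8.56 in null and 7.88 to 8.27 in wild-type arrays. For neurons 0 of 3 tested markers were called (4.88 to 5.65 in null, 5.26 to 5.57 in wild-type arrays). For ependyma 1 of 4 tested markers rose (Ccdc153) and 1 fell (Dynlrb2), with list means of 6.13 to 6.48 in null and 5.99 to 6.22 in wild-type arrays. Cerebellar granule neurons (4 tested), oligodendrocytes (5), macrophages (3) and the erythroid list (1) had 0 calls by limma in null against wild type. At an unadjusted p under 0.05 they held 1, 0, 0 and 0 markers in that order, beside 24% of all tested genes. Leaving out single arrays cost the call of Cdh5 in 5 of 15 fits, of Dynlrb2 in 8 and of Ogn in 3. For Kdr, Sox2, Ccdc153, Dcn and Pdgfra it was lost in 0. The other settings were 14 per gene, and 13 for Cdh5. There the call was lost in 8 for Dynlrb2, in 4 for Sox2, in 2 each for Cdh5, Ogn and Pdgfra, and in 1 each for Kdr, Ccdc153 and Dcn. The part of these cell types in the Arntl, Cry1 and Dbp differences was not tested.

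The label number gave few comparisons within 1 number. Null array 2 and heterozygous array 5 share 460, and their levels differed, null minus heterozygous, by 0 for Arntl, 0.24 for Cry1, 0.30 for Cry2, -0.19 for Dbp and -0.84 for Ciart. No number held both null and wild-type animals, so that comparison has no value within a number. Heterozygous minus wild type was 0.09 for Arntl and -0.46 for Cry1 within number 429 (1 and 2 animals), and 0.14 and 0.04 within number 432 (2 and 2 animals). As a random block, with a consensus correlation of 0.0333, the label number left all 4 calls of Arntl and Cry1 in place. A correlation this near 0 makes that fit almost the one without a block, so it cannot show whether the label number bears on these calls. As a linear covariate the label number left 0 members called in null against wild type and 0 in null against heterozygous.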

How the data were processed

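RNA of the choroid plexus of 15 mice was measured, 1 Affymetrix array per animal. The deposited values are on the log2 scale; per the submitters' processing notes they were made with Affymetrix Expression Console 1.1 and RMA, which corrects background, normalizes quantiles and summarises probes. No source used here names the log base; values between 1.57 and 13.89, with array medians of 4.78 to 4.88, point to log2. The genome build is not named. Of 35556 probe sets, 21789 had 1 gene symbol in the platform annotation, 1621 had several and 12146 were not listed.

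The probe set with the highest mean stood for each of 19938 genes. Genes above 5.31, the median of these values, in at least 5 arrays were tested (10109). Genotypes were compared with limma 3.58.1 in R 4.3.3 (lmFit, eBayes), fitting the 15 arrays together with no covariate and Benjamini-Hochberg adjustment over all tested genes. Groups came from the genotype labels. The procedure was tested on simulated data.

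The members and gene lists were chosen with earlier results of these data known. Genes named are all members, called genes of 7 pathway lists (otherwise the smallest p-values) and the genes most like a member, with gene models passed over. Ciart's further probe set, Eif2s3y, Fkbp5, the called markers and the uncalled genes of the wider list around the attached loop were named after their values were seen. The balance of Period genes and activators was planned with Npas2, which has no probe set here. Nothing states that animals came from separate litters. For arrays, their number limits the precision.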

Additional observations from a re-analysis of the deposited data

Results flagged for a closer look

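Within single genotypes, 45 sets of 5 arrays (15 genes in 3 genotypes) were searched for an array far from the others, and chance alone marks about 1 in 20. Cry1 in null array 5 was 5.94, the lowest of its genotype, while the next null array read 6.32 and the highest 6.37. That array also carries Xist signal and the highest label number, 483. Csnk1e in heterozygous array 2 was 6.56, while the other heterozygous arrays read 6.69 to 6.73.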

How the results depend on the processing

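Of 606 recomputed differences of the 7 members over 29 settings, 551 kept their direction and side of the threshold, 35 lost a call, 2 gained a call and 18 turned sign; unless stated otherwise the cause was not tested. The members called in null against wild type, 2 as reported, were 1 with no filter, 1 with the stricter filter (Arntl is then not tested), 1 with the replicate block, 1 with Xist as a covariate and 0 with the label number as a covariate, and 1 to 3 when single arrays were left out. Those called in null against heterozygous, 2 as reported, were 1 with no filter, with the stricter filter, with Xist as a covariate, without the 2 null arrays with Xist signal, and without these and heterozygous array 1 (the last chosen after seeing the data). They were 0 with only the 2 genotypes compared and with the label number, and 0 to 3 when single arrays were left out. Replicate numbers did not pair the animals, since same-numbered deviations correlated between -0.254 and 0.238. With the replicate block Cry1 against wild type had a limma adjusted p of 0.0679.

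Genes called in null against wild type, 780 as reported, were 458 with only the 2 genotypes, 1315 with array weights, 259 with the label number, 316 with Xist as a covariate and 401 without the arrays with Xist signal, and 392 to 1420 when single arrays were left out. The 1420 came without null array 2 and the 392 without wild-type array 1; null arrays 1 and 3 and wild-type arrays 2 and 3 gave 401, 440, 438 and 449. In null against heterozygous, 791 as reported, they were 500 with no filter, 342, 1296, 199, 236 and 332 in the same 5 settings, and 297 without heterozygous array 1 and the Xist arrays. Leaving out single arrays gave 356 to 1812 there. In heterozygous against wild type, 0 as reported, 1 gene was called with array weights, with Xist as a covariate and without the Xist arrays, and 0 to 1 when single arrays were left out.

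The Add1 difference from wild type, -0.31, lost its call with only the 2 genotypes (-0.31) and with the replicate block (-0.31), with the label number (-0.27), with Xist as a covariate (-0.26), without the Xist arrays (-0.26) and without heterozygous array 1 as well (-0.26), and in 3 of the 15 fits without a single array, where it was -0.35 to -0.26. Differences near 0 turned sign. Per1 in heterozygous against wild type was -0.012 with median centring, -0.0761 with array weights, -0.0525 without heterozygous array 1 and the Xist arrays, and -0.1095 to 0.128 when single arrays were left out. Per1 in null against heterozygous was -0.0147 without the Xist arrays and -0.0655 to 0.1245 when single arrays were left out. Per1 in null against wild type was -0.0695 to 0.168, and Cry1 in heterozygous against wild type -0.1485 to 0.0315, when single arrays were left out. In null against wild type, Clock was 0.0147 with array weights and -0.046 to 0.0215 without single arrays, and Per2 was 0.144 with the label number and -0.1365 to 0.041 without single arrays. Among named genes outside the loop, Sik1 in null against heterozygous was 0.00133 without the Xist arrays and 0.131 without heterozygous array 1 as well, and Usp2 with the label number was 0.129 in that comparison and 0.0418 in null against wild type. Dusp1 in null against wild type was -0.00504 with Xist as a covariate and -0.0287 without the Xist arrays, with or without heterozygous array 1.

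Arntl in null against heterozygous lost its call when any of null arrays 1, 3 and 4, heterozygous arrays 1 to 5 or wild-type array 4 was left out (limma adjusted p between 0.0511 and 0.107), and Cry1 in that comparison without null array 1, null array 3 or heterozygous array 3 (0.0517 to 0.0578). Arntl against wild type kept its call in each of these 15 fits, with differences of 0.46 to 0.61.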
